A study of Danio rerio with 9 samples.

Results

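The endocrine pancreas of zebrafish larvae was followed through the transcripts of its hormones and of the transcription factors that build it. Genes were taken by symbol, ignoring case and with a paralog suffix a or b optional, for ins, gcg, sst2, pdx1, neurod1 and isl1. This found 9 of the 32520 genes listed, 5 hormone genes (ins, insb, gcga, gcgb and sst2) and 4 factor genes (pdx1, neurod1, isl1a and isl1b). The table of gene names gives gcgb (ENSDARG00000040907), neurod1 (ENSDARG00000019566) and isl1a (ENSDARG00000004023) under the human symbols GCG, NEUROD1 and ISL1. RNA came from whole bodies of wild-type AB larvae at 5 days, in 3 libraries per group, each made from a separate pool of larvae. The SBMO larvae had been microinjected into the yolk at 4.7 hpf with 4.6 nL of bovine sialylated milk oligosaccharides at 100 mmol/L, and the SHMO larvae with the same volume and concentration of the human fraction. The Ctrl larvae were not microinjected. Each difference from Ctrl therefore joins the oligosaccharides with the injection, and these cannot be told apart in the 9 libraries. Expression is given in TPM, transcript abundance scaled by gene length and by the library total, a unit that keeps no depth.

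In the zebrafish pancreas, as in mammals, beta cells make insulin, alpha cells glucagon and delta cells somatostatin, and the cells are gathered in islets inside a larger exocrine tissue that makes digestive enzymes. Insulin lowers blood glucose, glucagon raises it, and somatostatin restrains the release of both. Pdx1 is needed for pancreas formation and beta cell identity, while NeuroD1 and Isl1 act in endocrine differentiation. NeuroD1 is also active in brain and retina, and Isl1 in sensory, motor and retinal neurons. In RNA from whole larvae, fewer cells of a type and less RNA per cell cannot be told apart.

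Differences were fitted with limma on log2(scaled TPM + 0.1) for the 19051 genes that averaged 1 TPM or more, all 9 libraries in a single model. A gene was called where its Benjamini-Hochberg adjusted p over these genes was 0.05 or less and its log2(FC) reached 0.58 in either direction. Folds are on that scale, where the added 0.1 shrinks the change of low genes. They compare means of log values, so they can lie above or below the ratio of the mean TPM. Of the 9 genes, 7 passed the filter, and insb and isl1b did not. SHMO replicate 1 stood apart within its group. Along the leading principal component, which held 40.5% of the variance, it lay at 21.1, between the Ctrl pools (46.4 to 79.1) and all other injected pools (-58.1 to -33.4). For the tested islet genes, results that rest on it are given with and without it. Most results of the other gene lists below are given with it only. Without it, calls in those lists fell from 22 to 5 in SBMO against SHMO larvae, where calls over all genes fell from 871 to 251. In SHMO against Ctrl larvae the list calls rose from 35 to 71. Each library listed 24452 to 25305 genes above 0.

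The tested islet hormones were lowest in SBMO larvae. All 4 tested hormone genes, ins, sst2, gcga and gcgb, fell against Ctrl, with larger fitted changes for ins and sst2 than for gcga and gcgb, a difference between genes that was not itself tested. Counting the factors, 4 of the 7 tested genes were called lower, where 11.5% of all genes were, and 1 was called higher, where 8.31% of all genes were. The SBMO pools lay wholly below the Ctrl pools for 5 of the 7 genes (20.1% of all genes) and wholly above them for 1 (20.2% of all genes). In SHMO larvae none of the hormones was called against Ctrl with all pools included. A single factor, neurod1, was called lower there, where 5.32% of all genes were, and 0 were called higher by limma, where 3.58% of all genes were. At an unadjusted p under 0.05, 3 of the 7 were lower and 0 higher. Unadjusted values this low were common over all genes there. sst2, at an unadjusted p of 0.0459 (limma), ranked only 5383 of 19051 genes. The SHMO pools lay wholly below the Ctrl pools for 2 of the 7 tested genes, sst2 and neurod1 (13.4% of all genes), and wholly above them for 0 of the 7 (20.4% of all genes). Without SHMO replicate 1, 2 were called lower, ins and neurod1. Calls over all 19051 genes, in either direction, rose from 1695 to 2542 in that setting.

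The insulin gene ins (ENSDARG00000035350) was at 0.91, 1.42 and 2.73 TPM in the SBMO pools, at 39.19, 9.31 and 5.49 TPM in the SHMO pools and at 30.32, 43.57 and 62.73 TPM in Ctrl pools. Every SBMO pool lay below every SHMO and Ctrl pool, and SHMO replicate 1 lay within the Ctrl range while SHMO replicates 2 and 3 lay below it. Against Ctrl, ins was 26.5-fold lower in SBMO larvae, with a log2(FC) of -4.73 ± 0.639 (fitted value ± its standard error, adjusted p = 0.0047, limma). The call held in all 21 other settings tried, with a log2(FC) from -5.11 to -4.10. In SHMO larvae the log2(FC) of ins was -1.85 ± 0.639 (adjusted p = 0.0928, limma), which missed the threshold. Without SHMO replicate 1 it was -2.65 with an adjusted p of 0.0102 (limma), so the call depended on that single pool.

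The somatostatin gene sst2 (ENSDARG00000014190), a product of delta cells, followed the same order. It was at 0.29, 0.25 and 2.59 TPM in the SBMO pools, at 18.53, 6.60 and 5.07 TPM in the SHMO pools and at 21.15, 21.23 and 37.31 TPM in Ctrl pools. No SBMO pool reached the lowest SHMO pool, and no SHMO pool reached the lowest Ctrl pool. Against Ctrl, sst2 was 35.6-fold lower in SBMO larvae, with a log2(FC) of -5.15 ± 0.720 (adjusted p = 0.00489, limma), and it was called in all 21 other settings. The drop with SBMOs depended in size on the constant added to the TPM, with a log2(FC) of -3.89 when 1 was added. Without single pools it ran from -6.09, without SBMO replicate 3, to -4.67. In SHMO larvae the log2(FC) of sst2 was -1.64 ± 0.720 (adjusted p = 0.162, limma). Its 95% interval reached from -3.24 to -0.04, and without SHMO replicate 1 the log2(FC) was -2.19 with an adjusted p of 0.0794 (limma).

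**Figure D1:**
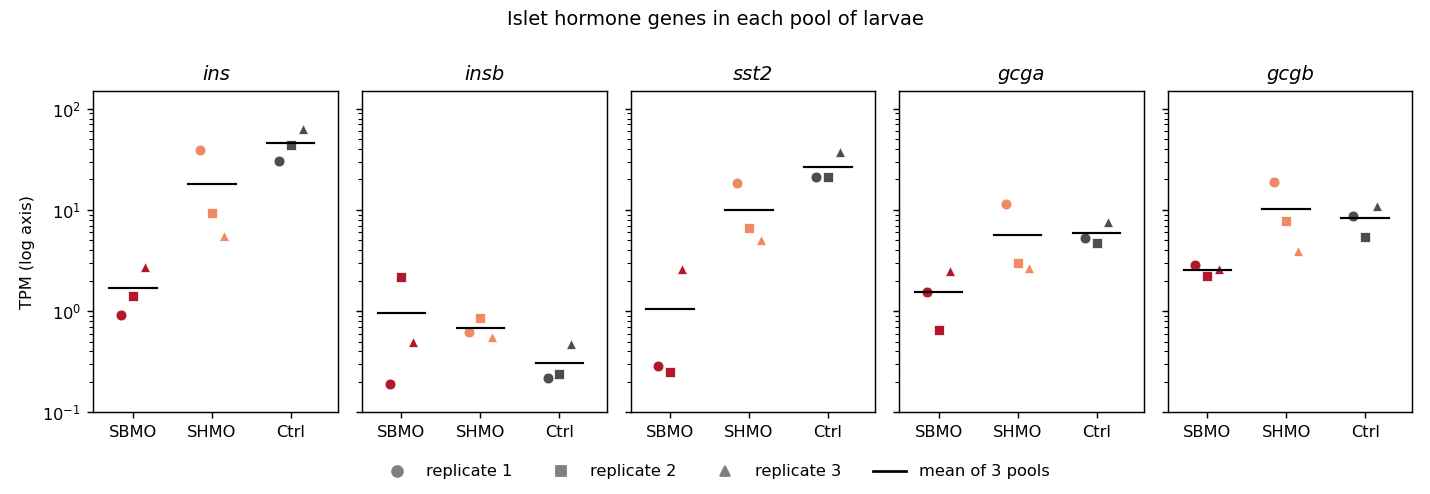
TPM of the 5 islet hormone genes in each pool, on a log axis, with SBMO, SHMO and Ctrl from left to right in each panel, 1 symbol per replicate and a line at the mean of 3 pools. For ins the SBMO pools sit between 0.91 and 2.73 TPM, SHMO replicate 1 at 39.19 TPM among the Ctrl pools, and SHMO replicates 2 and 3 at 9.31 and 5.49 TPM.

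The glucagon genes had smaller fitted changes. gcga (ENSDARG00000079296) was at 1.55, 0.65 and 2.47 TPM in the SBMO pools, at 11.45, 2.96 and 2.69 TPM in the SHMO pools and at 5.30, 4.73 and 7.60 TPM in Ctrl pools. Its paralog gcgb was at 2.88, 2.22 and 2.58 TPM in the SBMO pools, at 18.79, 7.82 and 3.95 TPM in the SHMO pools and at 8.71, 5.39 and 10.92 TPM in Ctrl pools. For both genes all SBMO pools lay below all other pools, while SHMO replicate 1 lay above all Ctrl pools. Against Ctrl, SBMO larvae had gcga 3.94-fold lower (log2(FC) -1.98, standard error 0.546, adjusted p = 0.0307, limma) and gcgb 3.03-fold lower (log2(FC) -1.60, standard error 0.451, adjusted p = 0.033, limma). Both calls were fragile. Leaving out any single Ctrl pool or SBMO replicate 1 or 2 ended both, with adjusted p from 0.0619 to 0.112 for gcga, and for gcgb, which also lost its call without SBMO replicate 3, from 0.0518 to 0.116 (limma). Calls over all genes also fell in the settings that ended both, from 3772 to between 937 and 2721. Both calls held without SHMO replicate 1 (adjusted p = 0.00914 for gcga and 0.00713 for gcgb, limma). In SHMO larvae the log2(FC) was -0.41 for gcga (95% interval -1.62 to 0.81) and -0.0049 for gcgb (-1.01 to 1.00). The adjusted p was 0.645 for gcga and 0.996 for gcgb (limma). Without SHMO replicate 1 the log2(FC) was -1.06 for gcga (standard error 0.425, adjusted p = 0.117) and -0.58 for gcgb (standard error 0.320, adjusted p = 0.235, limma), so the values near 0 rest on that pool.

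The shares of ins and of the glucagon genes in the hormone sum differed between the groups. Summed over the 5 hormone genes, the TPM was 5.82, 6.71 and 10.9 in the SBMO pools, 88.6, 27.6 and 17.8 in the SHMO pools and 65.7, 75.2 and 119 in the Ctrl pools. Of this sum, ins made up 15.6, 21.2 and 25.1% in the SBMO pools, 44.2, 33.8 and 30.9% in the SHMO pools and 46.1, 58.0 and 52.7% in the Ctrl pools. The glucagon genes gcga and gcgb together made up 76.1, 42.8 and 46.5% in the SBMO pools, 34.1, 39.1 and 37.4% in the SHMO pools and 21.3, 13.5 and 15.6% in the Ctrl pools. The groups did not overlap in either of these shares. The ins share leaves out the second insulin gene insb, which made up 32.3% of the sum in SBMO replicate 2. The sst2 share was 4.98, 3.73 and 23.8% in the SBMO pools, 20.9, 24.0 and 28.6% in the SHMO pools and 32.2, 28.2 and 31.3% in the Ctrl pools. In that share the SHMO pools overlapped both other groups. The ratio of ins to sst2 overlapped between all groups, at 1.05 to 5.68 in SBMO, 1.08 to 2.11 in SHMO and 1.43 to 2.05 in Ctrl pools. So did that of gcgb to gcga, at 1.04 to 3.42, 1.47 to 2.64 and 1.14 to 1.64. SHMO replicate 1, whose sum lay among the Ctrl pools, still had a lower ins share and a higher glucagon share than any Ctrl pool. All these shares are descriptions of the TPM with no test, and at the SBMO sums they rest on values of a few TPM.

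**Figure D2:**
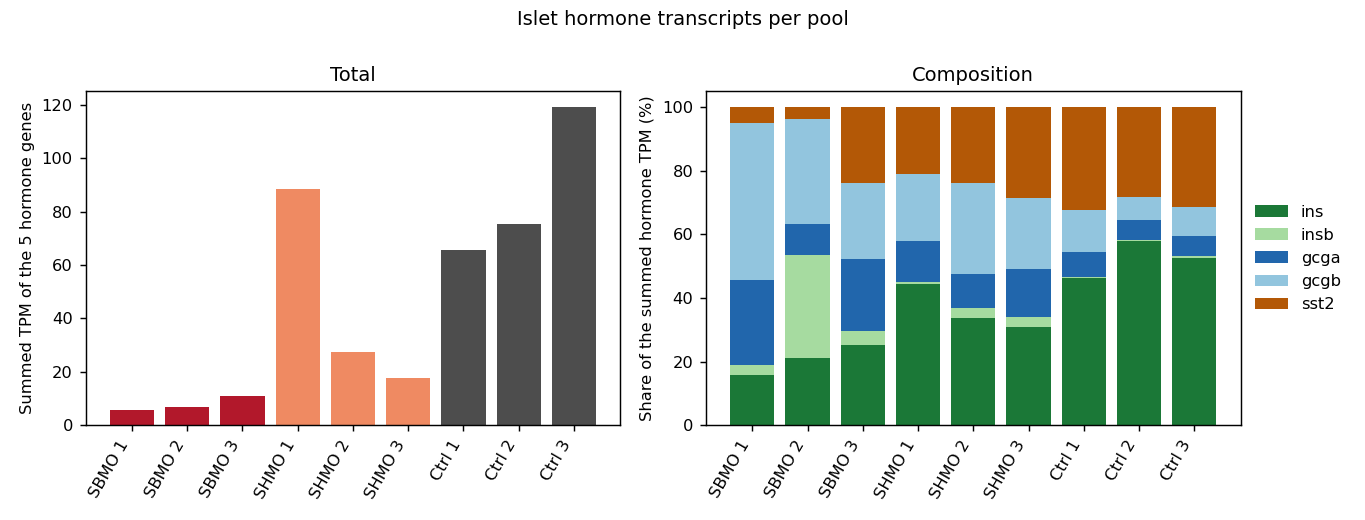
Left, the summed TPM of the 5 islet hormone genes in each pool. Right, the share of that sum from each gene in percent, with SBMO, SHMO and Ctrl pools from left to right. The ins share lies between 15.6 and 25.1% in SBMO pools, 30.9 and 44.2% in SHMO pools, and 46.1 and 58.0% in Ctrl pools.

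The treatments were also compared directly. In SBMO against SHMO larvae 2 of the 7 tested genes were called lower, where 2.74% of all genes were, and 1 higher, where 1.83% of all genes were. The 3 SBMO pools lay below the 3 SHMO pools for ins, sst2, gcga, gcgb and pdx1, 5 of the 7 tested genes (17.8% of all genes), and above them for neurod1 (9.83% of all genes). The log2(FC) was -2.88 for ins (standard error 0.639, adjusted p = 0.0346, limma) and -3.52 for sst2 (standard error 0.720, adjusted p = 0.0264, limma). Both calls depended on the pools included. Without SHMO replicate 1 the log2(FC) was -2.07 for ins and -2.96 for sst2, with adjusted p of 0.0727 and 0.104 (limma). The call of ins was also lost without SHMO replicate 2, SBMO replicate 1 or 2 or any single Ctrl pool (adjusted p from 0.056 to 0.136), and that of sst2 without SHMO replicate 2 or 3, SBMO replicate 1 or 2 or Ctrl replicate 1 or 2 (0.0523 to 0.129, limma). For the glucagon genes the difference was -1.57 for gcga (95% interval -2.79 to -0.36, adjusted p = 0.13, limma) and -1.59 for gcgb (-2.60 to -0.59, adjusted p = 0.0745, limma), and gcgb was called without SHMO replicate 3 (log2(FC) -2.11, adjusted p = 0.0341, limma). Without SHMO replicate 1 the difference was -0.91 for gcga (adjusted p = 0.376) and -1.02 for gcgb (adjusted p = 0.185, limma).

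**Figure D3:**
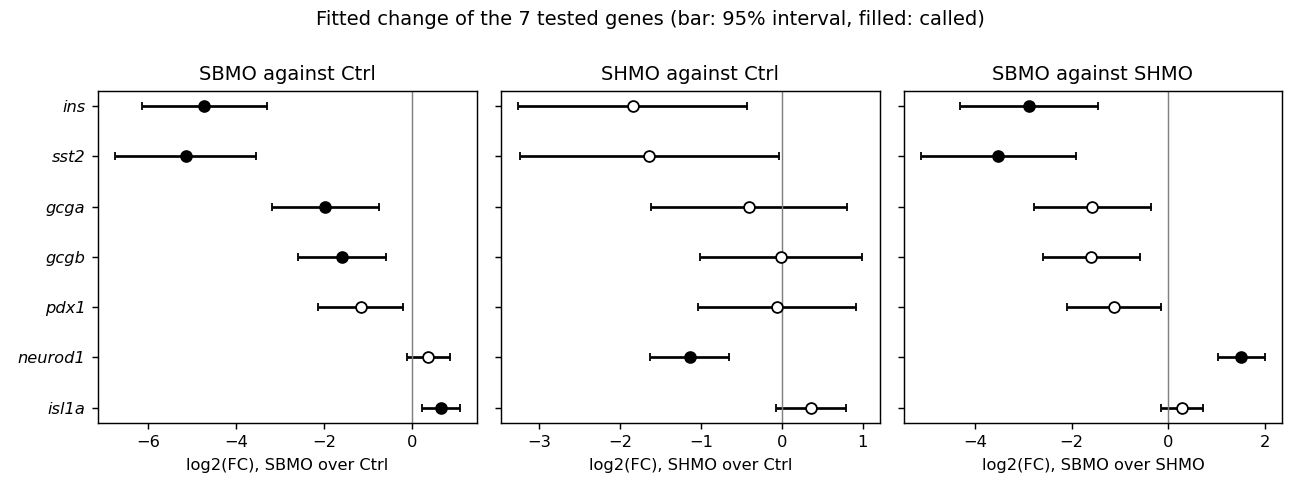
Fitted log2(FC) of the 7 tested genes in SBMO against Ctrl, SHMO against Ctrl and SBMO against SHMO, with 95% intervals as bars. Filled points were called. In SBMO against Ctrl ins lies at -4.73 and sst2 at -5.15, and neurod1 is the only filled point in SHMO against Ctrl.

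The factor genes did not move together. pdx1 (ENSDARG00000002779), the pancreas and beta cell factor, was at 0.55, 1.85 and 2.07 TPM in the SBMO pools, at 3.37, 2.77 and 3.24 TPM in the SHMO pools and at 2.36, 2.88 and 4.35 TPM in Ctrl pools. Every SBMO pool lay below every other pool, and the SHMO pools lay within the Ctrl range. In SBMO larvae its log2(FC) against Ctrl was -1.17 (95% interval -2.15 to -0.20, adjusted p = 0.0765, limma), which missed the threshold, and without SBMO replicate 1 it was -0.59. In SHMO larvae it was -0.06 (-1.03 to 0.92, adjusted p = 0.944, limma). Against SHMO larvae the SBMO larvae were at -1.12 (-2.09 to -0.14, adjusted p = 0.176, limma).

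neurod1, the most abundant of the 9 genes in every pool, was the only one called lower in SHMO larvae. It was at 243.36, 181.82 and 145.59 TPM in the SBMO pools, at 55.45, 75.15 and 79.51 TPM in the SHMO pools and at 163.45, 161.84 and 117.01 TPM in Ctrl pools. All SHMO pools, replicate 1 included, lay below all pools of the other groups, which overlapped each other. Against Ctrl, the SHMO larvae were 2.21-fold lower (log2(FC) -1.14, standard error 0.222, adjusted p = 0.0155, limma). The call was lost without SHMO replicate 2 (adjusted p = 0.0532), Ctrl replicate 1 (0.0562) or Ctrl replicate 2 (0.0629, limma). In SBMO larvae the log2(FC) against Ctrl was 0.37 (95% interval -0.12 to 0.86, adjusted p = 0.236, limma). Directly compared, SBMO larvae were 2.85-fold higher than SHMO larvae (log2(FC) 1.51, standard error 0.222, adjusted p = 0.00739, limma), and this call held without each of the 9 pools in turn (adjusted p from 0.00459 to 0.0483, limma).

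isl1a, the Isl1 gene with the higher level, was the only one called higher in SBMO larvae. It was at 55.49, 53.75 and 40.95 TPM in the SBMO pools, at 36.18, 48.57 and 45.45 TPM in the SHMO pools and at 37.98, 33.37 and 25.73 TPM in Ctrl pools. The SBMO pools lay above the Ctrl pools, and the SHMO pools overlapped both groups. Against Ctrl, SBMO larvae were 1.57-fold higher (log2(FC) 0.65, standard error 0.193, adjusted p = 0.0384, limma). This call lay near both thresholds and was lost in 11 of 21 other settings, among them without SBMO replicate 1 or 2, SHMO replicate 2 or 3 or any single Ctrl pool (adjusted p from 0.0506 to 0.126, limma). In SHMO larvae the log2(FC) against Ctrl was 0.36 (95% interval -0.07 to 0.79, adjusted p = 0.236, limma), and SBMO against SHMO it was 0.29 (-0.14 to 0.72, adjusted p = 0.414, limma).

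**Figure D4:**
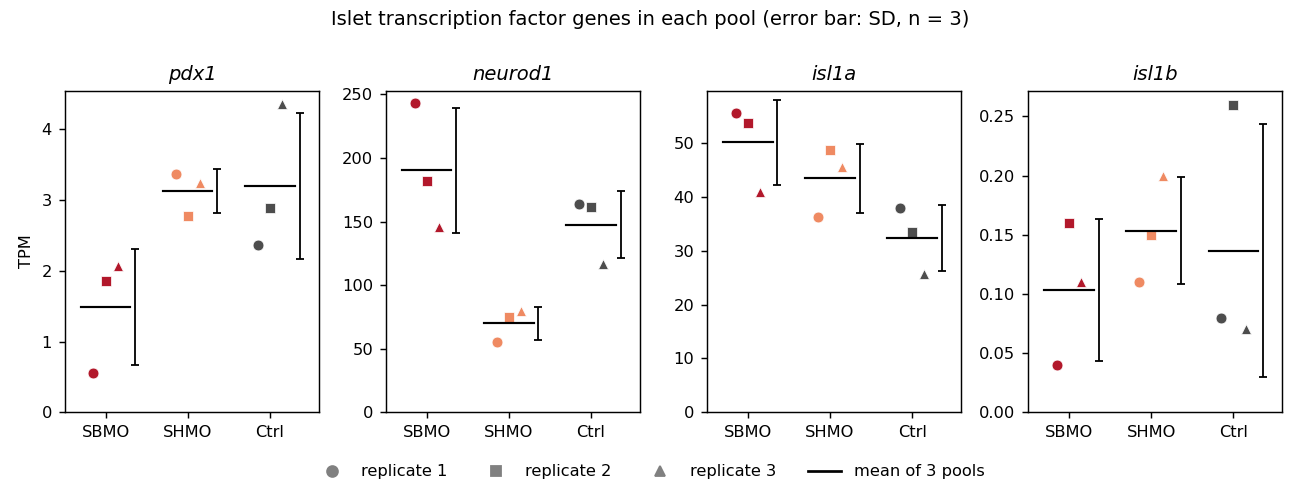
TPM of pdx1, neurod1, isl1a and isl1b in each pool, with SBMO, SHMO and Ctrl from left to right in each panel, a line at the mean and an error bar of 1 SD over 3 pools. The SHMO pools of neurod1 lie between 55.45 and 79.51 TPM, below all other pools.

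The untested paralogs were close to the limit of the table, which gives 2 decimals. insb (ENSDARG00000034610), the second insulin gene, was at 0.19, 2.17 and 0.49 TPM in the SBMO pools, at 0.62, 0.86 and 0.55 TPM in the SHMO pools and at 0.22, 0.24 and 0.47 TPM in Ctrl pools. It did not share the fall of ins. The SHMO pools lay just above the Ctrl pools, and SBMO replicate 2 alone reached 2 TPM and made insb 32.3% of the hormone sum of that pool. isl1b (ENSDARG00000021055) ranged from 0.04 to 0.16 TPM in the SBMO pools, 0.11 to 0.20 TPM in the SHMO pools and 0.07 to 0.26 TPM in Ctrl pools, which overlap throughout. With no filter on low values, neither gene was called in any comparison by limma (adjusted p from 0.372 to 1, limma over 27442 genes).

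By level, the order within each group was read from the mean TPM, which is per length. In Ctrl larvae neurod1 came first (147 ± 26.4 TPM, SD, n = 3), then ins (45.5 ± 16.3), isl1a (32.4 ± 6.19), sst2 (26.6 ± 9.31), gcgb (8.34 ± 2.78), gcga (5.88 ± 1.52), pdx1 (3.20 ± 1.03), insb (0.310 ± 0.139) and isl1b (0.137 ± 0.107). The pools of ins, isl1a and sst2 overlapped their neighbours in that order, as did those of gcgb and gcga and of insb and isl1b. In SBMO larvae ins (1.69 ± 0.939 TPM, SD, n = 3) stood below gcgb (2.56 ± 0.330) and beside gcga (1.56 ± 0.910), pdx1 (1.49 ± 0.821) and sst2 (1.04 ± 1.34), and all of these overlapped but pdx1 and gcgb. The SHMO means were spread widely by replicate 1, at 18.0 ± 18.5 TPM for ins and 10.1 ± 7.37 TPM for sst2 (SD, n = 3).

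Other islet and gut hormones went both ways. Of 14 tested, 3 were called higher and 3 lower in SBMO against Ctrl larvae (8.31% and 11.5% of all genes), with a median log2(FC) of 0.12 beside 0.05 over all genes. gip, an incretin hormone made in gut endocrine cells, was at 0.55, 0.08 and 0.40 TPM in SBMO pools and at 4.66, 4.89 and 6.91 TPM in Ctrl pools (log2(FC) -3.82, adjusted p = 0.00596, limma). The somatostatin gene listed as SST (ENSDARG00000040799) moved against sst2, at 55.18, 60.48 and 47.43 TPM in SBMO pools and 37.87, 26.90 and 23.77 TPM in Ctrl pools (log2(FC) 0.92, adjusted p = 0.0155, limma). Somatostatin is also made by neurons. vipb, a gene of the vasoactive intestinal peptide family, was lower in both comparisons with Ctrl, with a log2(FC) of -0.92 in SBMO larvae (adjusted p = 0.0148) and -0.84 in SHMO larvae (adjusted p = 0.0293, limma), the single gene of the list called with SHMOs. Over all genes 5.32% were called lower with SHMOs. vgf, which encodes a granule protein of neurons and endocrine cells, was higher in SBMO than in SHMO larvae (37.0 ± 7.34 against 14.0 ± 1.87 TPM, SD, n = 3, log2(FC) 1.47, adjusted p = 0.0269, limma), the single call of the list there. Over all genes 1.83% were called higher between SBMO and SHMO larvae. In SBMO against Ctrl larvae vgf was called higher too (log2(FC) 1.16, adjusted p = 0.026, limma). So was the hormone gene pyya, with means of 57.1 TPM with SBMOs and 30.9 TPM in Ctrl (log2(FC) 0.92, adjusted p = 0.0216, limma).

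Among 34 other islet transcription factors tested, 7 were called higher and 6 lower in SBMO larvae (8.31% and 11.5% of all genes), with a median log2(FC) of 0.33. The lower ones included HNF4A (0.863 ± 0.278 TPM with SBMOs and 4.75 ± 0.630 in Ctrl, SD, n = 3, log2(FC) -2.36) and GATA5 (log2(FC) -2.64), with adjusted p of 0.00445 and 0.007 (limma). These factors are known in the endoderm and its organs, gut and liver among them. GATA6 and foxa3 were also lower. The 7 higher ones were NKX2-2, nkx2.2b, NKX6-1, NKX6-2, both INSM1 genes and one of the SOX4 genes, all of them also active in the nervous system, and they were named after their values were seen. In SHMO larvae an INSM1 gene (ENSDARG00000053301) was higher (log2(FC) 1.01, adjusted p = 0.0301) and mafbb lower (-0.78, adjusted p = 0.0192, limma). Over all genes 3.58% were called higher and 5.32% lower in that comparison, so these single calls lie near the background. Against SHMO larvae the SBMO larvae had foxa3, GATA5 and HNF4A lower and none higher (log2(FC) from -2.09 to -0.98, adjusted p from 0.025 to 0.0277, limma). Over all genes 2.74% were called lower and 1.83% higher between SBMO and SHMO larvae.

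The granule and stimulus secretion genes, which many neurons share with islet cells, gave 6 higher and 2 lower of 27 tested in SBMO larvae, with a median log2(FC) of 0.36. Over all genes 8.31% were called higher and 11.5% lower, so the count of 2 lower lies near the background. SLC2A2, the glucose transporter of beta cells, liver and gut, was lower (2.35 ± 0.864 TPM with SBMOs and 11.7 ± 1.80 in Ctrl, SD, n = 3, log2(FC) -2.31, adjusted p = 0.0047, limma), as was SCGN. chgb, a granin of secretory granules, was higher (log2(FC) 0.93, adjusted p = 0.0166) and so was PTPRN2 of the granule membrane (0.77, adjusted p = 0.0181, limma). The prohormone convertases, looked at after their values were seen, were not called in SBMO against Ctrl larvae (PCSK1 at log2(FC) 0.25, adjusted p = 0.442, and PCSK2 at 0.12, adjusted p = 0.668, limma). In SHMO larvae 0 of the 27 were called against Ctrl by limma, while 5 were higher and 4 lower at an unadjusted p under 0.05. Unadjusted values this low were common over all genes in that comparison, so these counts do not set the list apart. In SBMO against SHMO larvae SLC2A2 was lower (log2(FC) -1.54, adjusted p = 0.026) and SCG3 higher (0.71, adjusted p = 0.0261, limma). Over all genes 2.74% were called lower and 1.83% higher in that comparison, so these single calls lie near the background.

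On the side of the targets, the hormone receptors and their adaptors gave 2 higher and 2 lower of 13 tested in SBMO larvae, with a median log2(FC) of 0.28. Over all genes 8.31% were called higher and 11.5% lower, so counts this small lie near the background. The somatostatin receptor genes sstr5 (1.64 ± 0.265 TPM with SBMOs and 3.92 ± 0.379 in Ctrl, SD, n = 3, log2(FC) -1.20, adjusted p = 0.00888, limma) and SSTR2 (ENSDARG00000059090, log2(FC) -1.02, adjusted p = 0.0158, limma) were lower. An IRS2 gene (ENSDARG00000075282), an adaptor of the insulin receptor, was higher (log2(FC) 1.08, adjusted p = 0.0193, limma), as was sstr1b. Neither insulin receptor gene was called in SBMO against Ctrl larvae, with a log2(FC) of -0.03 for INSR (ENSDARG00000071524, adjusted p = 0.921, limma) and 0.08 for INSR (ENSDARG00000011948, adjusted p = 0.789, limma). None of the 13 was called in SHMO larvae by limma, with 3 lower and 0 higher at an unadjusted p under 0.05. As unadjusted values this low were common over all genes there, the count of 3 does not set the list apart. Against SHMO larvae the SBMO larvae had the other IRS2 gene (ENSDARG00000037099) higher (log2(FC) 1.02, adjusted p = 0.0257, limma), a single call where 1.83% of all genes were higher.

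A list of glucose and glycogen metabolism genes, which insulin and glucagon regulate in mammals, also held igfbp1b, a gene of an insulin-like growth factor binding protein. The list gave 8 lower and 0 higher of 14 tested in SBMO larvae (10 lower and 1 higher at an unadjusted p under 0.05, limma), with a median log2(FC) of -1.13. Unadjusted values under 0.05 were common over all genes there, and 11.5% of all genes were called lower and 8.31% higher. The lower ones included fbp1b of gluconeogenesis (24.3 ± 6.66 TPM with SBMOs and 115 ± 28.2 in Ctrl, SD, n = 3, log2(FC) -2.23, adjusted p = 0.00508), the liver glycogen synthase GYS2 (-1.92, adjusted p = 0.00561) and the liver glycogen phosphorylase PYGL (-1.33, adjusted p = 0.0143, limma). These named genes belong to both the making and the release of glucose stores. In SHMO larvae 2 of the 14 were lower (5.32% of all genes), fbp1a (log2(FC) -0.87, adjusted p = 0.0171) and the binding protein gene igfbp1b (-2.55, adjusted p = 0.0178, limma), and 5 were without SHMO replicate 1. Against SHMO larvae the SBMO larvae had GYS2, fbp1b and pck2 lower (log2(FC) from -1.98 to -1.59, adjusted p from 0.00837 to 0.0264, limma), where 2.74% of all genes were.

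Markers of neighbouring tissues were lower beside the hormones in SBMO against Ctrl larvae, and the exocrine markers were lower in SHMO against Ctrl larvae too, where no hormone was called with all pools included. Of 27 exocrine pancreas markers tested, 24 were called lower in SBMO larvae and 18 in SHMO larvae (11.5% and 5.32% of all genes), with a median log2(FC) of -4.84 and -3.86. Over the 35 genes of that list the summed TPM was 116 to 683 in the SBMO pools, 190 to 3031 in the SHMO pools and 4918 to 9306 in the Ctrl pools, and sycn.1 was listed at 0 in all SBMO pools. Among those with the smallest p were a CEL gene (ENSDARG00000029822, bile salt lipase, log2(FC) -5.82) and cela1.3 (an elastase, -4.73) in SBMO larvae, and both CEL genes (the second ENSDARG00000017490) and cela1.3 in SHMO larvae, with log2(FC) from -6.11 to -4.18. The first CEL gene was at 0.05 to 0.29 TPM in SBMO, 0 to 0.42 TPM in SHMO and 9.35 to 20.90 TPM in Ctrl pools. For cela1.3 these ranges were 0 to 0.19, 0.07 to 0.28 and 2.17 to 6.50 TPM. Both passed the filter only through Ctrl, so they could only be called lower, and their folds depend on the added 0.1. How many of the 27 passed in that way was not counted. SHMO replicate 1 held the highest of the SHMO sums, as it did for ins, sst2, gcga and gcgb. The exception in the list was PTF1A, an acinar factor also active in brain and retina, which was higher in SBMO larvae (3.22 ± 0.699 TPM with SBMOs and 1.75 ± 0.307 in Ctrl, SD, n = 3, log2(FC) 0.85, adjusted p = 0.0342, limma) and was singled out after its values were seen. In SBMO against SHMO larvae 0 of the 27 exocrine markers were called by limma, 0 also at an unadjusted p under 0.05, with a median log2(FC) of -1.01. Over all genes 2.74% were called lower and 1.83% higher there, so 0 calls of 27 lie near the background. The first CEL gene and cela1.3 were near 0 TPM in both of these groups, where a further fall could hardly be seen. ins and sst2 were called in that comparison with all pools included, and neither was without SHMO replicate 1 (adjusted p = 0.0727 for ins and 0.104 for sst2, limma). Also without that pool, 25 of the 27 exocrine markers were called lower in SHMO against Ctrl larvae, along with 11 of 15 intestine markers. Of 16 neuron markers 8 were called higher. Calls over all 19051 genes, in either direction, were 2542 in that fit in place of 1695. No test was made of whether the endocrine and the exocrine genes differ in their change.

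Over all genes 11.5% were called lower and 8.31% higher in SBMO against Ctrl larvae, and 5.32% and 3.58% in SHMO against Ctrl larvae. Intestine markers gave 15 lower of 15 tested in SBMO larvae and 3 in SHMO larvae, with a sum over 21 genes of 360 to 610 TPM in SBMO pools, 744 to 2618 TPM in SHMO pools and 2410 to 3085 TPM in Ctrl pools. Leading the calls were ANPEP, chia.2 and apoa4b.2 with SBMOs (log2(FC) from -3.55 to -2.96) and chia.1, apoa1a and chia.2 with SHMOs (-4.08 to -1.42). Liver markers gave 13 lower of 19 in SBMO larvae and 1 in SHMO larvae, with a sum of 3218 to 5839 TPM in SBMO pools, 7359 to 12068 TPM in SHMO pools and 8063 to 11173 TPM in Ctrl pools. apobb.1, fabp10a and APOB led them with SBMOs (log2(FC) from -3.49 to -1.14), and RBP4 was the call with SHMOs (-0.66). Of 4 pituitary markers, POMC (log2(FC) -1.41) and gh1 (-3.96) were lower in SBMO larvae, and 0 were called in SHMO larvae by limma, with 1 lower at an unadjusted p under 0.05. In the other direction, neuron markers gave 10 higher of 16 in SBMO larvae and 3 in SHMO larvae, and 0 lower in either, also at an unadjusted p under 0.05 (limma). Their sum over 16 genes was 1704 to 2135 TPM in SBMO pools, 1301 to 1838 TPM in SHMO pools and 839 to 1242 TPM in Ctrl pools. STMN2, gap43 and nefmb led with SBMOs (log2(FC) from 0.96 to 1.31), and tubb5, STMN2 and nefmb were the calls with SHMOs (0.86 to 0.98). Sensory and motor neuron markers gave 4 higher and 1 lower of 14 in SBMO larvae, among them P2RX3 (log2(FC) -1.70) and SLC18A3 (0.86), and 0 in SHMO larvae by limma, with 3 higher and 1 lower at an unadjusted p under 0.05. Unadjusted values this low were common over all genes in SHMO against Ctrl larvae. The unadjusted counts there of the sensory and motor neuron list and of the pituitary list therefore do not set these lists apart. Retina and photoreceptor markers gave 6 higher and 2 lower of 25 in SBMO larvae and 5 lower and 0 higher in SHMO larvae (8 lower and 4 higher at an unadjusted p under 0.05, limma). In SBMO larvae the lower counts of this list and of the sensory and motor neuron list lie near the share over all genes. Both ARR3 genes were lower (log2(FC) -1.92 and -1.85) and opn1lw1 higher (0.99) with SBMOs, and opn1mw2 (-3.42) and gnb3b (-0.61) lower with SHMOs. Between SBMO and SHMO larvae the retina list gave 4 higher, led by opn1lw1, GNAT1 and opn1lw2 (log2(FC) from 0.61 to 1.59), and 0 lower by limma, with 10 higher and 2 lower at an unadjusted p under 0.05. Over all genes 1.83% were called higher and 2.74% lower there. The share over all genes at an unadjusted p under 0.05 is not given for that comparison. neurod1 was higher in that comparison too. The other tissue lists gave 5 lower among intestine markers (ANPEP, VIL1 and SLC15A1 first) and 3 among liver markers (tfa, apoa2 and f2), and no neuron, sensory and motor neuron or pituitary marker was called by limma. In pituitary markers CGA, POU1F1 and smtla were listed at 0 in all SBMO and SHMO pools, and fshb in all SBMO pools. Only 4 of the 13 genes of that list averaged 1 TPM or more. As TPM keeps no depth, a listed 0 does not show that a gene was not expressed. The part of these tissues in the values of the hormone and factor genes was not tested.

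**Figure D5:**
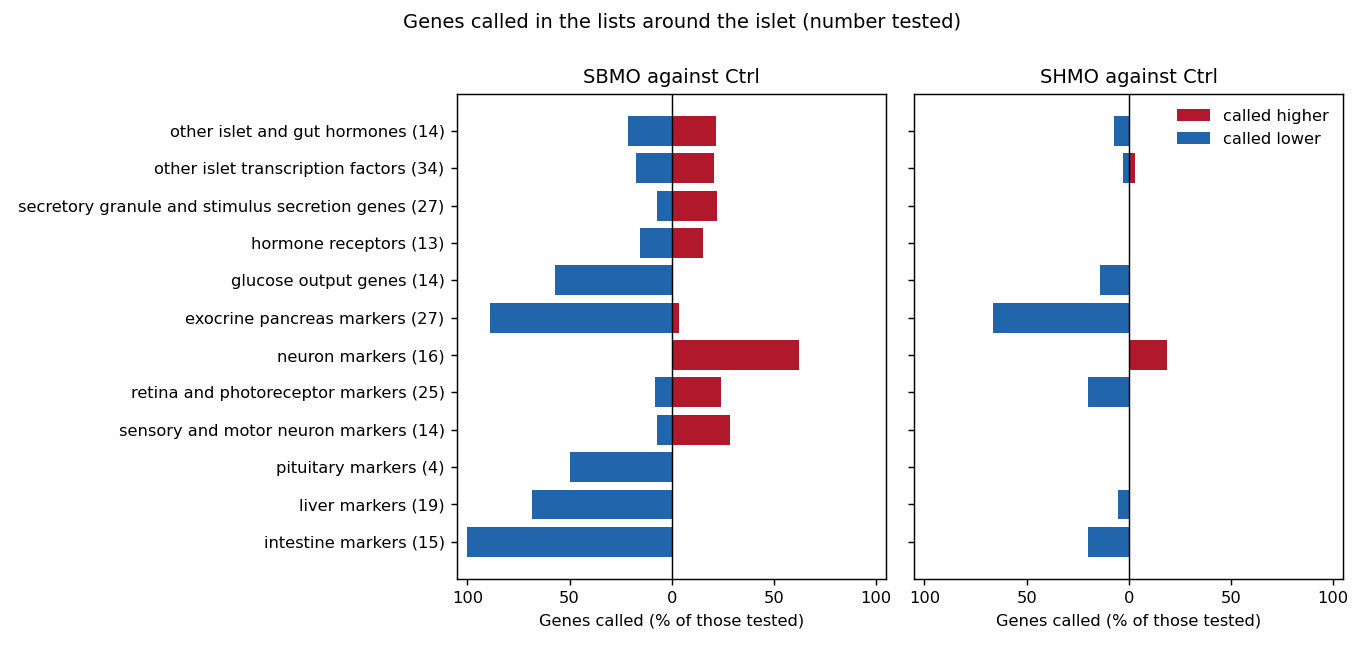
Share of the tested genes called higher (right of 0, red) or lower (left of 0, blue) in each list around the islet, in percent, for SBMO against Ctrl on the left and SHMO against Ctrl on the right, with the number tested after each name. Exocrine pancreas, intestine and liver markers were called lower in most cases with SBMOs, and neuron markers higher.

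The genes most like each member in pattern were taken as the 3 with the highest Pearson correlation of log2 values over the 9 libraries. This is a description, since the points share the group differences and the library of each pool. For ins they were the somatostatin receptor gene sstr5, apoa4b.2, an apolipoprotein of the intestine, and FRK (r from 0.986 to 0.987). For sst2 they were zgc:123217, PGD and aqp12 (0.989 to 0.992), for gcga f13a1b, UGT1A1 and sult2st2 (0.987 to 0.990), for gcgb GNL3, PCCA and ECI2 (0.963 to 0.967) and for pdx1 ME1, atp6v0e1 and cyp27a1.1 (0.970 to 0.982). For neurod1 they were BMAL1, GPM6B and cry4 (0.975 to 0.982). BMAL1, an activator of the circadian clock, was at 36.45, 33.52 and 22.83 TPM in the SBMO pools, at 9.02, 11.86 and 11.63 TPM in the SHMO pools and at 26.58, 26.97 and 23.67 TPM in Ctrl pools, so that it too was lowest in every SHMO pool. For isl1a they were brinp3a.1, GRIN1 and leng8 (0.983 to 0.986), and GRIN1, a glutamate receptor subunit of neurons, was at 124.15, 115.46 and 81.20 TPM in the SBMO pools, at 54.35, 84.67 and 86.56 TPM in the SHMO pools and at 66.39, 56.63 and 32.36 TPM in Ctrl pools.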

How the data were processed

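Total RNA of 9 pools of larvae was sequenced after poly(A) capture with a stranded kit. STAR, RSEM and the build GRCz11 are named in the submitters' processing notes, and the authors deposited TPM values to 2 decimals. The annotation release is not given in the sources used here. TPM keeps no depth, so the counting error of low values is unknown.

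Symbols for 29201 genes came from a table of Ensembl names. TPM values were scaled by median ratio (factors 0.930 to 1.08), and log2(scaled TPM + 0.1) was fitted with limma 3.58.1 in R 4.3.3 (a term for group, eBayes with trend, prior of 4.14 degrees of freedom). The fit was first run on simulated data, drawn independently for each gene and pool. That simulation held no shift of a whole pool, such as that of SHMO replicate 1, and says nothing on it. Intervals are 95% intervals of the fit. Figures used Python 3.11.15 and matplotlib 3.10.9. All 9 genes are described. From each of the 12 other lists and in each comparison, up to 3 called genes with the smallest adjusted p and a higher group mean of at least 1 TPM were named, and other list genes were named after their values were seen. Some genes that the rule names are not reported here. For each tested member the 3 genes most alike in pattern were named. List symbols absent from the table were matched without their paralog suffix. The members and lists were chosen with earlier results of these data known. The labels call the pools biological replicates, and p-values measure the spread between these pools. Alternatives were no further scaling or quantile normalization, added constants of 1 and 0.01, no filter or a mean of 5 TPM, only the 2 groups compared, a replicate block, other variance priors, no minimum log2(FC), a test against 0.58 (treat), and leaving out each pool.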

Additional observations from a re-analysis of the deposited data

How the results depend on the processing

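Against Ctrl, ins and sst2 were called lower in SBMO larvae under all 21 alternatives. The higher call of neurod1 in SBMO against SHMO larvae held without each pool in turn, and was lost with only the 2 groups compared and with treat. Each of the other calls of these genes was lost without at least 1 of the pools. Leaving out each pool in turn, 2 to 5 of the 7 tested genes were called in SBMO against Ctrl larvae (0 to 1 higher and 2 to 4 lower), 0 to 2 in SHMO against Ctrl larvae (all lower, 0 to 2) and 1 to 3 in SBMO against SHMO larvae (1 higher each time, 0 to 2 lower). The lists around the islet gave 116 calls in SBMO against Ctrl larvae (43 to 129 without single pools), 35 in SHMO against Ctrl larvae (5 to 71) and 22 in SBMO against SHMO larvae (1 to 37). Over all genes these counts were 3772 (937 to 4220), 1695 (411 to 2542) and 871 (151 to 1255), and 236, 147 and 67 with treat. treat, which asks whether a change exceeds 0.58, called 2 genes lower and 0 higher in SBMO against Ctrl larvae, 2 in all, with 29 list genes, and 0 genes, lower or higher, in both other comparisons, with 6 list genes in SHMO against Ctrl larvae and 1 in SBMO against SHMO larvae. The higher call of isl1a in SBMO larvae was lost, leaving 0 higher, with quantile normalization, with only the 2 groups compared and without a trend in eBayes. In SBMO against SHMO larvae 1 gene was called lower with 1 added to the TPM, with no filter and without a trend. With only the 2 groups compared 0 were called there (0 higher and 0 lower, 2 list genes), and with robust eBayes 1 was called, 0 of them lower. The cause of these changes was not tested.

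In SHMO against Ctrl larvae the log2(FC) of gcgb, which was not called, changed sign to 0.062 with no scaling, 0.0027 with quantile normalization, 0.016 with 1 added, and 0.051, 0.52 and 0.22 without SHMO replicate 2, SHMO replicate 3 and Ctrl replicate 3, in a range of -0.58 to 0.52 without single pools. That of pdx1 changed sign to 0.0094 with no scaling, and 0.033 and 0.19 without SHMO replicate 2 and Ctrl replicate 3, in a range of -0.30 to 0.19. With no scaling the median log2(FC) of all genes in SHMO against Ctrl larvae was 0.11 in place of 0.04 and the share of calls that were higher was 52.5% in place of 40.2%, and in SBMO against SHMO larvae it was 29.5% in place of 40.1%. The filter at 5 TPM left out gcga and pdx1. Replicate numbers did not pair the pools: the 9 correlations of same-numbered pools ran from -0.26 to 0.15, and 6 of 18 were best with their own number. With the replicate block 1 gene in place of 2 was called lower in SBMO against SHMO larvae, as ins had an adjusted p of 0.0612 (limma), and no other member's call changed.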
